A study of Mus musculus with 19 samples.

Results

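The RNA-seq data described here came from retinal microglia of mice that had received no laser treatment. They were the 6 control samples, S1 to S6, of a series of 12 samples, and the members described were the 16070 genes of the class protein-coding among the 27299 genes in the table. All 6 control samples shared the same treatment, so no comparison between groups was made and every value is a description of level and of spread between samples.

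In the central nervous system, retina included, microglia are the macrophages that live within the neural tissue. They survey neurons with motile processes, take up debris into lysosomes, tag synapses with complement, and depend on signals through the receptors CSF1R and TGFBR1 to keep a homeostatic identity that includes *P2ry12*, *Tmem119* and *Sall1*. Interferon signaling is known to switch on a separate program of antiviral genes in these cells.

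The control mice were unlasered, 8 weeks old and of the strain C57BL/6J in the labels, whereas the methods of the study name *Cx3cr1* GFP/+ mice, in which 1 copy of the fractalkine receptor gene is replaced by GFP. Cells were sorted from the retina as CD45+ (CD45lo in the methods), CD11b+, CX3CR1+, Ly6C- and Ly6G-, a gate that leaves out most monocytes and neutrophils but not every other macrophage. Total RNA of 150 to 600 pg per sample was turned into cDNA by template switching and amplified with 12 to 14 cycles of PCR, so a transcript of few copies can be lost or multiplied by chance before sequencing. The labels list each control sample in 2 parts that are merged in the deposited values, and they do not say how many mice or eyes made up a sample.

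The deposited signal of a gene is its read count divided by a size factor of the sample, called normalized count below. Dividing a sample by its smallest step gave whole reads for 100% of its genes, within a tolerance of 0.01 of a read. Between 10963178 reads (S6) and 22335233 reads (S5) lay on genes, and the other 4 samples had 19633144 to 21525893. Each read was therefore worth 1.00 (S5) to 1.99 (S6) normalized counts. A sample with 0 reads allows a level of up to 3 reads, which are 3.01 to 5.96 normalized counts, and this floor covers counting error only, as PCR copies were not marked. No pair of samples agreed within counting noise, as the smallest chi-square of a pair was 25.5 times its degrees of freedom. S3 stood apart from the others. Pearson's r of log2 values over the 3781 protein-coding genes with a mean of at least 1000 was 0.910 to 0.935 for the 5 pairs with S3 and 0.943 to 0.957 for the remaining 10 pairs, a description across genes that share libraries and depth.

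The counted reads of the control microglia lay almost wholly on protein-coding genes. Reads with several matches in the genome or on exons shared by several genes were not counted, so the shares cover the counted reads only. Protein-coding genes took 98.6% ± 0.135 (SD, n = 6) of the reads on genes, with 98.4% in S2 as the lowest and 98.8% in S5 as the highest. The counting error of such a share was at most 0.00707 percentage points on either side (95% Wilson interval). Long intergenic RNAs took 0.313% ± 0.0406, unconfirmed genes (TEC) 0.235% ± 0.0352, antisense genes 0.159% ± 0.0129 and processed transcripts 0.14% ± 0.00988. Mitochondrial ribosomal RNA took 0.107% ± 0.0252 and nuclear ribosomal RNA 0.107% ± 0.045, the latter with a range of 0.0624% in S5 to 0.181% in S1.

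Single genes of these minor classes reached the level of well-expressed protein-coding genes. *Malat1*, a nuclear RNA found in most cells, had 26374 ± 5025 normalized counts, and *Xist*, which coats the inactive X chromosome, had 6522 to 9795. All 4 genes of the Y chromosome list (*Ddx3y*, *Eif2s3y*, *Kdm5d*, *Uty*) were at 0 in the 6 samples. *Ighm*, the constant region of the IgM heavy chain, had 12220.4 ± 575 in every sample alike. Of the B cell genes, *Cd79a* and *Ebf1* had means of 5.42 and 4.33, whereas *Cd79b* made up 99.3% of the B cell list. The sum of that list was 932 to 1856. The dectin receptor gene *Clec7a* had 9955 ± 781 and is classed in this annotation as a polymorphic pseudogene, so it was not among the protein-coding members. The class of miRNA genes took 0.0502% in S6 and 0.00958% to 0.0278% in the other 5 samples, and *Mir6236* alone had 9149 in S6 against 1090.2 to 3393 elsewhere. S6 and S1 were its highest samples, and also those of the ribosomal RNA gene *CT010467.1* (28651 and 38582, others 13758 to 24695). The source of the reads on miRNA genes was not tested.

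All 4 genes taken as microglial markers were among the 25 highest of the 16070 protein-coding genes. *Cst3*, the secreted cathepsin inhibitor cystatin C, was the highest gene of all, with 598917 in S2, a median of 702446 and 782097 in S3 (mean 693313 ± 60468, SD, n = 6). *Csf1r*, the receptor for colony-stimulating factor 1, ranked 4 with 327338 to 357199 and a mean of 345828 ± 10697. *P2ry12*, the ADP receptor that steers microglial processes, ranked 9 with 157959 in S3, a median of 192436 and 214665 in S5. *Tmem119*, a membrane protein used to tell microglia from other macrophages, ranked 19 with 99098 to 114465. The highest sample exceeded the lowest by 1.36 times for *P2ry12* and by 1.16 times for *Tmem119*, so the markers differed little between the 6 samples. *Cst3* lies at chr2:148871722-148875692 (minus strand), *P2ry12* at chr3:59216272-59262871 (minus strand) and *Tmem119* at chr5:113793729-113800516 (minus strand) of GRCm38.

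The 25 highest genes included cathepsins, complement chains, surface receptors and actin genes. *Ctss*, *Ctsd* and *Ctsb* encode cathepsins and had 367164 ± 26290.0, 208543 ± 14198 and 121164 ± 7636. The 3 chains of complement C1q were all present, with 192681 ± 19758 for *C1qb*, 173623 ± 16494 for *C1qc* and 133492 ± 13321 for *C1qa*. S3 was the highest sample for each of the 3 chains, with 230399, 205969.8 and 154838, and the other samples did not reach these values. The remaining genes of the 25 included *Actb* and *Tmsb4x* (actin and an actin-binding peptide), *Serinc3*, *Itm2b*, *Selplg*, *Laptm5*, *Cd81*, *Lgmn*, *B2m*, *Psap* and *Olfml3*, and the receptor genes *Cx3cr1*, *Gpr34* and *P2ry13*.

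**Figure D1:**
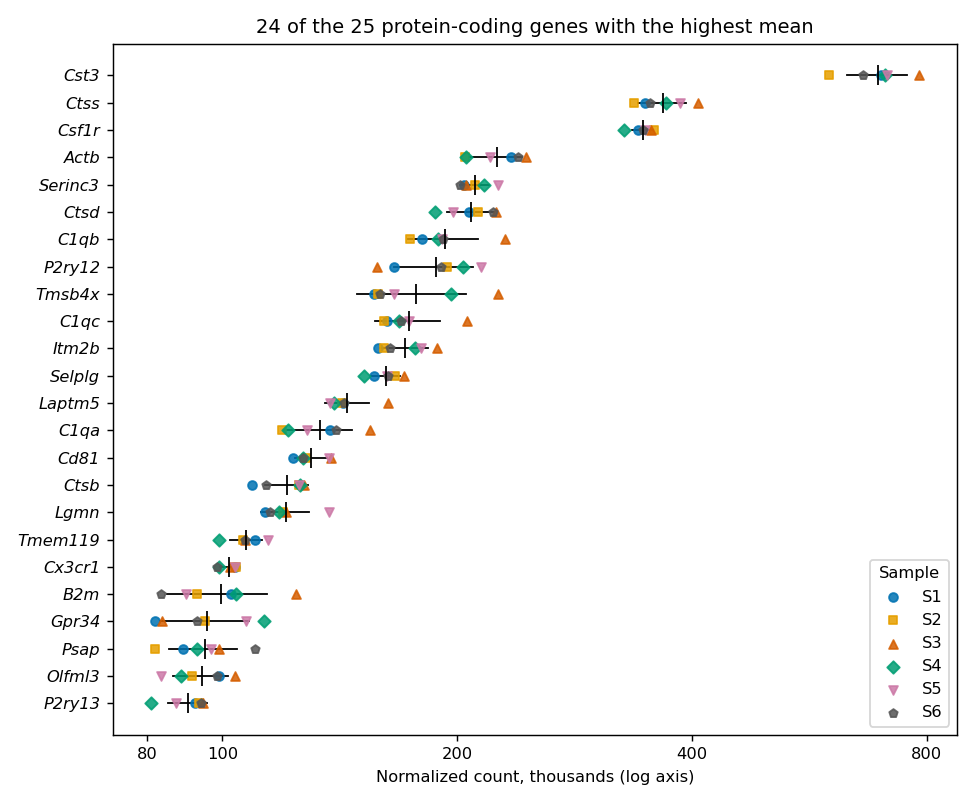
Normalized count (log axis) of 24 of the 25 protein-coding genes with the highest mean, 1 symbol per control sample, with the mean as a vertical tick and ± 1 SD as a line. The samples of a gene lie close together, and *Cst3* at a mean of 693313 lies above all others.

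Levels between genes were also compared per kilobase of exon, because long genes collect more reads. On this scale *Cst3* stayed at the top with 547641 ± 47763 normalized counts per kilobase, and the next genes included *Ctss* with 270371, *C1qb* with 177096, *Tmsb4x* with 129156, *C1qa* with 128357 and *B2m* with 115695. *C1qc*, *Ctsd*, *Actb*, *P2ry12*, *Itm2b*, *Csf1r*, *Serinc3* and *Lgmn* filled ranks 8 to 15. *Csf1r* moved from rank 4 to rank 13 with 59894 per kilobase. Of the 25 genes highest by mean, 22 were among the 25 highest per kilobase and 25 among the 25 highest by median. Reads in exons shared by several genes were not counted, which lowers genes with overlaps by an unknown amount. Overlapping genes cover 34.4% of the exon length of *Ctsd* (*Gm49369*), 15.1% of that of *Csf1r* (*Hmgxb3*) and 12.8% of that of *Ctsb* (*Fdft1*).

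The reads were concentrated on few genes. *Cst3* alone took 3.22% ± 0.251 of the protein-coding signal, the 10 highest genes 14.0% ± 0.494, the 25 highest 22.5% ± 0.736, the 100 highest 35.5% ± 0.742 and the 1000 highest 65.1% ± 0.475. In each sample 319 to 367 genes were enough to hold 50% of the signal. The share of the 100 highest genes was lowest in S2 with 34.8% and highest in S3 with 36.9%. In all, 281 genes had a mean of at least 10000 and held 47.2% of the signal, 3500 genes between 1000 and 10000 held 40.7%, and 5421 genes between 100 and 1000 held 11.7%.

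Homeostatic identity genes differed little between samples, as did other genes of high level. Of 30 listed homeostatic genes, 29 were in the table under the symbols searched, and *Tmem173* was not. All 29 had reads in the 6 samples, and together they took 14.4% ± 0.271 of the protein-coding signal, with 14.1% as the lowest and 14.8% as the highest share. Their median SD on the log2(normalized count + 1) scale was 0.127, near the 0.132 of all 281 protein-coding genes with a mean of at least 10000. Over all 9202 protein-coding genes with a mean of at least 100 it was 0.38. *Siglech*, a sialic acid-binding lectin, had 47164 ± 1660, and *Sparc*, a matrix-binding glycoprotein, had 90328 ± 4677. The widest spread of the group was that of *Tgfbr1*, a receptor chain for TGF-beta, with 35421 in S3 and 53118 to 67556 in the other samples (SD of log2 0.32), and *Lag3*, an MHC class II ligand and the lowest of the list, with 241 to 457 (SD of log2 0.30). None of the 29 genes reached an SD of 1, which 8.53% of those 9202 genes but only 7 of the 3781 genes with a mean of at least 1000 did.

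Transcription factors of the microglial lineage were present at lower levels than the markers. The 22 listed factors took 0.69% ± 0.0396 of the signal. *Mef2c* (23083 ± 2054), *Irf8* (18944 ± 1379) and *Mef2a* (16170 ± 2831) were among the highest, and *Spi1*, which encodes the myeloid master factor PU.1, had 8345 ± 464. *Sall1*, which sets microglia apart from other macrophages, had 11176 ± 1188, with 9711 as its lowest value. Per kilobase of exon, *Spi1* with 3096 lay above *Mef2c* with 1469. The lowest members were *Bhlhe40* with 12.1 to 201 and *Klf4* with 0 to 58.6.

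The signal of genes for nucleotide receptors and ectoenzymes lay mostly on few members. The 14 purinergic genes in the table took 1.49% ± 0.0921 of the signal, and *P2ry12* made up 58.5% of it. *P2ry13* had 90344 ± 5214, the ectoenzyme gene *Entpd1*, which breaks down ATP, had 19741 ± 1985, and *P2ry6*, a UDP receptor linked to uptake of debris, had 9074 ± 621. *P2rx7*, an ion channel opened by ATP, had 3915 to 7088 and *P2rx4* 3088 to 3943. *Nt5e*, the enzyme that turns AMP into adenosine, was at 0 to 71.0 and had no reads in 3 of the 6 samples.

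Complement genes took 2.78% ± 0.186 of the signal, and S3 had the highest share with 3.14%. Beside the C1q chains, the receptors *C3ar1* and *C5ar1* had 18750 ± 1104 and 10862 ± 709, and the integrin chains of complement receptor 3 had 24945 ± 1569 (*Itgb2*) and 6403 ± 557 (*Itgam*). The reads of *Itgam* are a lower limit, as *Gm49368* covers 68.7% of its exons. In contrast, *C3* had 84.8 to 255, *C4b* 209 to 1191 with the highest value in S1, and *Serping1*, the inhibitor of C1, was at 0 in the 6 samples.

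Lysosomal genes and cathepsins took 12.9% ± 0.443 of the signal, and 29 of 30 had reads in all samples with a median SD of log2 of 0.106. This list and the homeostatic list overlap, so their shares are not separate. *Cst3* is on both and made up 24.9% of this list and 22.3% of the homeostatic list, which also holds the cathepsin gene *Ctss*. Progranulin (*Grn*, 76829 ± 7491), *Ctsz* (72286 ± 4643), *Lamp1* (38818 ± 1495) and *Cd68* (28067 ± 1182) followed the genes named above. *Ctsk*, a cathepsin of bone-resorbing osteoclasts, had a mean of 0.357 and was the single member without reads in every sample.

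Antigen presentation was split by class. The 16 MHC class I genes took 1.24% ± 0.117 of the signal, led by *B2m* (83438 to 124332), *H2-D1* (44308 ± 4881) and *H2-K1* (22256 ± 2085). MHC class II genes took 0.0937% ± 0.00866, and the class II chaperone genes *H2-DMa* (8463 ± 586) and *H2-DMb1* (3639 ± 338) were higher than the invariant chain *Cd74* (2171 ± 922). The class II chain genes *H2-Aa* and *H2-Eb1* had 963 and 816 in S2, 336 and 273 in S4, and 74.1 to 98.0 and 34.4 to 117 in the other 4 samples. The class II transactivator *Ciita* was at 0 to 9.03. H2 genes resemble each other, and how reads were split between copies was not tested.

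Of the pattern recognition genes, 16 of 19 had reads in every sample. This list of Toll-like receptors and adaptors took 0.869% ± 0.0329, and *Ly86*, its largest member, made up 30.7% of it. *Tlr2* had 15485 ± 1282, *Tlr13*, a sensor of bacterial ribosomal RNA, 15256 ± 2158 and *Tlr7*, a sensor of single-stranded RNA, 8564 ± 1325. *Tlr8* had 195 in S3, 19.3 in S1 and 0 in the other 4 samples. Among phagocytic receptors, *Sirpa*, which binds the signal CD47 on other cells, had 88365 ± 6077, *Fcgr3* 34201 ± 5320, *Mertk* 14594 ± 1540 and *Trem2* 10109 ± 998. The adaptor *Tyrobp*, which passes on the signal of TREM2, had 26806 ± 4113, and the scavenger receptor *Marco* was at 0 in the 6 samples.

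Genes that mark activated or disease-associated microglia were uneven. Their list took 1.72% ± 0.117 of the signal, of which *Ctsd* made up 56.2%. *Cd9* had 58664 ± 4955 and *Apoe*, a lipid carrier, had 20865 ± 7381, with 11838 in S6, 16118 in S1, 17542 in S5, 21395 in S2, 25999 in S3 and 32299 in S4. At the other end, *Spp1* (osteopontin) had 29.8 to 415, *Lgals3* (galectin 3) 19.3 to 301, *Fabp5* 35.4 to 101 and *Itgax* 331 to 885. *Gpnmb*, a glycoprotein of lipid-laden macrophages, had 647 in S1, 159 in S5, 89.1 in S2 and 0 in S3, S4 and S6. The last 5 genes were thus present at a small part of the level of *Cd9*, and *Gpnmb* had the largest spread of all protein-coding genes with a mean of at least 100.

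Immediate early genes can be induced while tissue is dissociated and sorted. The 26 listed genes took 0.222% ± 0.014, led by *Rhob* (8587 ± 1291), *Klf6* (8369 ± 1332) and *Btg2* (5822 ± 567). *Jun* had 3679.7 ± 807, while *Fos* had 0 to 133 and *Fosb* at most 1.01. *Egr1* had 13.2 in S4, 68.3 in S5 and 156 to 542 in the other samples. *Jund* had at most 2.25, where *Gm11175* covers 52.6% of its exons. The heat shock genes *Hspa1a* and *Hspa1b* had at most 22.5 and 56.8.

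Among inflammatory mediators the cytokine genes were low and some chemokine genes were high, and S3 was the highest sample for *Il1b*, *Tnf* and *Csf1*. The cytokine genes took 0.0436% ± 0.00472 of the signal. *Il1b* had 649 in S3, 289 in S2 and 68.7 to 119 in the other samples, and *Tnf* had 289 in S3, 231 in S1 and 59.7 to 141 in the others. *Csf1* had 195 to 1502, and *Il1a* 2626 ± 508. The chemokine genes took 0.244% of the signal in S3 and 0.121% to 0.168% in the other 5 samples, led by *Ccl6* (10172 ± 1475), *Ccl12* (8206 ± 5925) and *Ccl9* (7699 ± 1584). Of the 16 chemokine genes, *Cxcl1* and *Cx3cl1* were at 0 in the 6 samples.

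Genes of growth and metabolism took small shares of the protein-coding signal as counted here. The 82 cytosolic ribosomal protein genes together took 0.608% ± 0.1, less than *Cst3* alone, with 0.791% in S3 and 0.511% to 0.626% in the other samples. Glycolytic genes took 0.216% ± 0.0141, led by *Aldoa* with 8441 ± 769.7. The 10 mitochondrially encoded protein-coding genes in the table took 0.304% ± 0.0349, with *mt-Cytb* at 20863 ± 2536 and *mt-Co3* at 0. Reads with several matches in the genome were not counted, and their part in the low values of ribosomal and mitochondrial genes was not tested. Cell division genes took 0.0161% ± 0.00503. The proliferation marker *Mki67* had 229 in S1, 86.1 in S2, 26.4 in S4, 9.93 in S6 and 0 in S3 and S5, and *Top2a* had 349 in S1, 221 in S4 and 0 to 31.4 in the others.

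**Figure D2:**
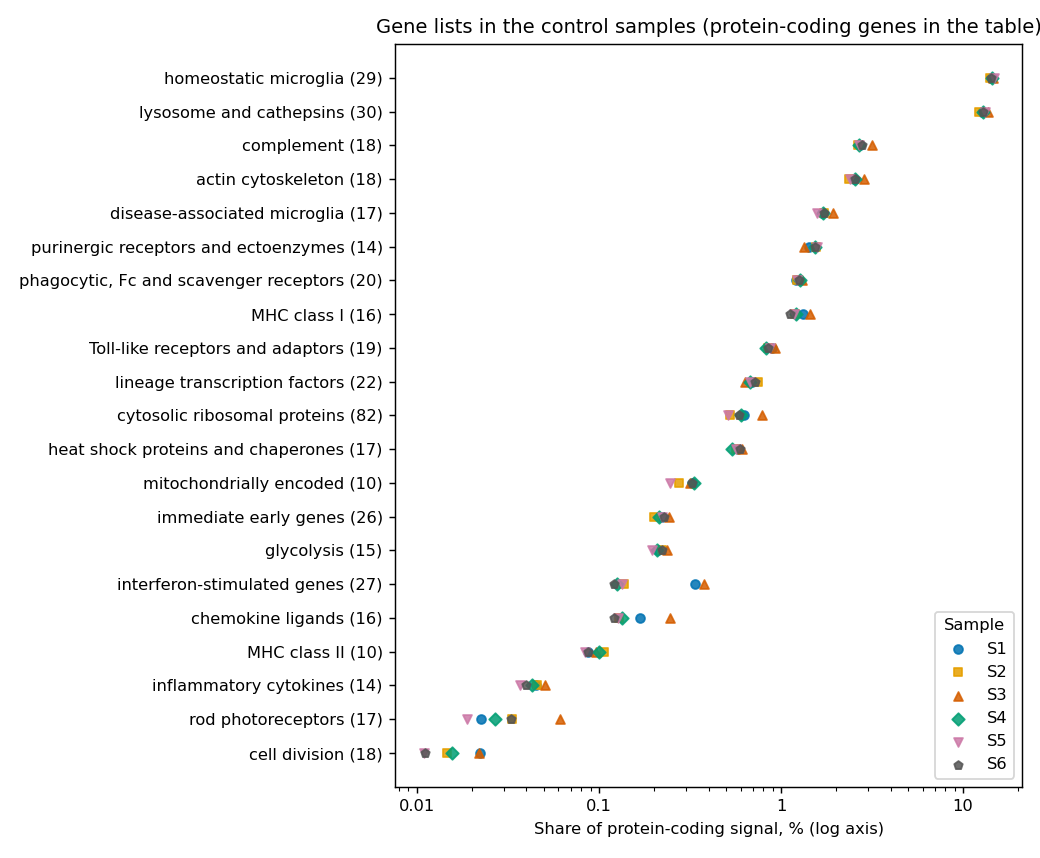
Share of the protein-coding signal (percent, log axis) held by each gene list in each control sample, 1 symbol per sample, with the number of protein-coding genes of the list in the table. Most lists keep the 6 samples close together, while interferon-stimulated genes range from 0.122% to 0.377% and rod genes from 0.0188% to 0.0616%.

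Markers of other retinal and blood cells were checked in the same samples. In bulk samples, fewer cells of a type and less RNA per cell cannot be told apart. The monocyte genes *Ly6c2* and *Chil3* and the neutrophil genes *S100a9* and *Cxcr2* were at 0 in the 6 samples, and *Ccr2* had 0 to 95.3. Of the neutrophil list, 99.9% was *Csf3r* (10220.5 ± 910), and its other members summed to at most 26.4 in any sample. The sums of the T and NK cell genes and of the erythroid genes were at most 29.4 and 15.2. Genes of border-associated macrophages included *Mrc1* with 33.8 to 758, *Ms4a7* with 139 to 783 and *Lyve1* with 564 in S3 and 0 in the other 5 samples. S3 was the highest sample for all 3. *Stab1*, a scavenger receptor, made up 66.6% of that list, whose other members summed to 175 to 2517. The sums of the astrocyte, pericyte, pigment epithelium, amacrine and endothelial genes did not exceed 169, 96.2, 312, 463 and 990 in any sample. In several lists 1 gene made up most of the sum, namely *Siglech* (99.4% of the dendritic cell list), *Cd79b* (99.3% of the B cell list), *Gngt2* (98.7% of the cone list), *Prkca* (94.3% of the bipolar cell list), *Rbpms* (76.3% of the ganglion cell list), *Cnp* (60.7% of the oligodendrocyte list) and *Ms4a4c* (54.3% of the monocyte list, whose sum was at most 1228).

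Rod photoreceptors are the most numerous neurons of the mouse retina. The source of the reads on their genes was not tested. The rod transducin gene *Gnat1* had 72.1 in S4, 102 in S1, 145 in S5, 326 in S6, 572 in S2 and 3064 in S3. Without *Gnb1*, which many cells express, the 16 remaining rod genes summed to 1084 to 8995, with S3 again the highest. The whole list took 0.0616% of the signal in S3 and 0.0188% to 0.0333% in the others. Of the cone genes, *Opn1mw*, *Arr3* and *Cnga3* were at 0, and the astrocyte marker *Gfap* had 82.0 in S2 and 0 in the others. *Glul* (5723 ± 911) and *Slc1a3* (2117 ± 344), known in Mueller glia, were present in all samples, whereas *Rlbp1* had 6.07 to 124 and *Clu* 0 to 68.0.

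Detection split the protein-coding genes into those found always and those found seldom. Of the 16070 genes, 9760 had reads in all 6 samples, 1663 in none of them and 1832 in a single sample. The rest had reads in 2 (957 genes), 3 (669), 4 (509) or 5 samples (680). A sample had reads on 11227 (S4) to 12391 (S2) protein-coding genes. At the depth of S6, the shallowest sample, 11072 to 11948 would be expected, so S2 stayed the highest. S2 was also the only sample with reads for 629 genes, against 171 to 352 for each of the other samples. S3 was the only sample without reads for 215 genes, against 46 to 131 for the others.

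Spread between samples followed the level of the gene. The median SD of log2(normalized count + 1) was 0.132 for genes with a mean of at least 10000, 0.266 between 1000 and 10000, and 0.512 between 100 and 1000. The 15 steadiest genes with a mean of at least 100 had SD values of 0.03 to 0.05. *Marcks*, a substrate of protein kinase C at the actin cortex, led them with 41653 to 43612, followed by *Cx3cr1*, the fractalkine receptor used in the sort, with 98448 to 104018. *Lcp1*, *Csf1r*, *Cd53*, *Siglech*, *Gnai2* and *Vav1*, genes of receptors, signaling and actin bundling, were among the same 15 genes.

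Of the 9202 protein-coding genes with a mean of at least 100, 785 (8.53%) reached an SD of log2 of at least 1, and 778 of them had a mean under 1000. The 20 with the largest spread had SD values of 3.75 to 4.33 and means of 101 to 543, and each was at 0 in at least 1 sample. They included genes of cell division. *Rrm2*, a subunit of ribonucleotide reductase, had 510.1 in S3 and 0 in S5 and S6, and *Ccnb2* (cyclin B2), *Spc25* (kinetochore) and *Pbk* (mitotic kinase) were at 0 in the same 2 samples with 85.04 to 395 elsewhere. Other genes linked to DNA replication had other orders. *E2f2*, a transcription factor of the cell cycle, had 442 in S5, 381 in S6 and 0 in S3, and *Chaf1b*, a histone chaperone subunit, was at 0 in S4 and S6. *Piga*, which acts in anchoring proteins to the membrane, was at 0 in S5 and S6 like the mitotic genes. *Nckap1*, a part of the WAVE actin complex, had 188, 152 and 292 in S3, S5 and S6 and 0 in the others.

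**Figure D3:**
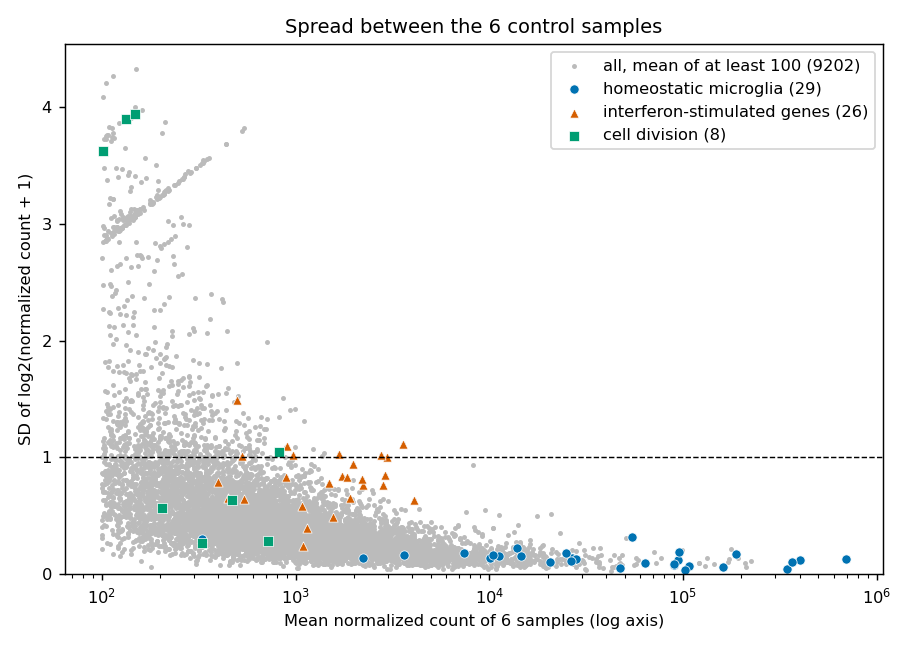
SD of log2(normalized count + 1) over the 6 control samples against the mean normalized count (log axis) for the 9202 protein-coding genes with a mean of at least 100; the dashed line marks an SD of 1. The median SD is 0.127 for the homeostatic genes, near the 0.132 of all genes with a mean of at least 10000, and 0.821 for the interferon-stimulated genes.

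Well-expressed genes that dropped to 0 were a small set. Among the 9202 genes, 173 had a sample with 0 reads, 152 of them in a single sample, 17 in 2 samples and 4 in 3 or more. Every one of them is contained in the 785 variable genes, because a 0 beside such a mean sets the SD. None of the 3781 genes with a mean of at least 1000 was at 0 in any sample. The losses were unequal, with 74 of these genes at 0 in S3, 44 in S4, 31 in S5, 29 in S6, 11 in S2 and 9 in S1. Without S3 the number fell from 173 to 89.

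The highest gene of this set was *Mlh3*, a DNA mismatch repair gene, with 0 in S3 and 221, 656, 1174, 671 and 534 in S1, S2, S4, S5 and S6. *Zfp40* had 0 in S3 and 485 to 882 in the others, and *Zbtb6* had 0 in S4 and 325 to 849 in the others. A value of 0 in S3 allows up to 3.38 normalized counts, so these samples differ by far more than counting error. Of the 15 genes with the highest mean in this set, 7 were at 0 in S3 (*Mlh3*, *Zfp40*, *Tcaf1*, *Polk*, *Rnf113a2*, *Ift46*, *Mtrf1*), 4 in S4 (*Zbtb6*, *Oplah*, *1700066M21Rik*, *Plekha8*), 3 in S6 (*Ifi206*, *Dab2*, *Pms2*) and 1 in S5 (*Cand2*). *Polk*, a DNA polymerase that copies damaged templates, had 260 to 634 outside S3, and *Dab2*, an endocytic adaptor, had 129 to 722 outside S6.

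Above a mean of 1000, spread had a different makeup. Only 7 genes reached an SD of 1 there, namely *Akap11*, *Rtp4*, *Slc16a7*, *Fzd4*, *Usp18*, *Oasl2* and *Fgd4*. *Akap11*, an anchor of protein kinase A, had 152 in S3 and 706 to 1820.2 in the others, *Slc16a7*, a monocarboxylate transporter, had 322 in S3 and 504 in S4 against 1307 to 1976, and *Fgd4* had 343 in S3 against 868 to 2211. *Fzd4*, a Wnt receptor, had 281 in S4 and 1319 to 1850.0 elsewhere. In 9 of the 20 genes with the largest spread at this level, S3 was the lowest sample. Over all 9202 genes with a mean of at least 100, S3 was the lowest in 2150 and the highest in 2128. *Rtp4*, *Usp18* and *Oasl2* are interferon-stimulated genes and were highest in S3. *Usp18* passed the minimum mean of 1000 only through S1 and S3, with 699 to 1168 in the others.

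Interferon-stimulated genes were highest in S3 and S1 together. Of 28 listed genes, 26 were protein-coding with a mean of at least 100. Type I interferon switches these genes on, and their products block viral RNA and amplify the signal. The list sum was 82116 in S3 and 71408 in S1, and 26121 in S6, 27243 in S4, 28915 in S2 and 29853 in S5. As a share of the protein-coding signal, these sums ranged from 0.122% to 0.377%. S3 and S1 lay apart from the other 4 samples, which differed by little among themselves.

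In 18 of the 26 genes S3 lay above S1, and in 8, among them *Ifih1*, *Rsad2*, *Zbp1* and *Ifit2*, S1 lay above S3. *Isg15*, a ubiquitin-like modifier, had 2092 in S3, 1564 in S1 and 331 to 483 in the other 4 samples. *Rtp4* had 8211 in S3, 6573 in S1 and 1383 to 1843 in the others. *Ifitm3*, which blocks viral fusion, had 6309 in S3, 5117 in S1 and 1253 to 2000.4 in the others. *Oasl2*, of the RNA-sensing oligoadenylate synthetase family, had 5621 in S3, 5326 in S1 and 1227 to 1522 in the others. The same held for *Irf7*, the factor that amplifies interferon production, with 3749, 2543 and 951 to 1119.7. *Usp18*, an inhibitor of the interferon receptor, had 4204, 2358 and 699 to 1168 in the same order.

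Over the list, S1 and S3 were the 2 highest samples in 23 of the 26 genes (88.5%), against 750 of all 9202 genes with a mean of at least 100 (8.15%). All 26 genes lay above their own mean of log2 values in S1 and in S3. The median difference from the mean of a gene was 1.12 in S3 and 0.84 in S1 on the log2 scale and -0.55 to -0.32 in the other 4 samples, where the median over all 9202 genes was 0.02 to 0.04 in each sample. The 3 exceptions to the order were *Parp14*, *Gbp2* and *Ifit1*, where S5, S4 and S6 entered the 2 highest samples. The smallest spread was that of *Ifih1*, a sensor of double-stranded RNA, with 909.5 to 1424. *Ifnb1*, the gene of interferon beta itself, had 446 in S3, 40.8 in S1 and 0 in the other 4 samples. As the list was known to differ between samples when it was described, these counts are no test.

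**Figure D4:**
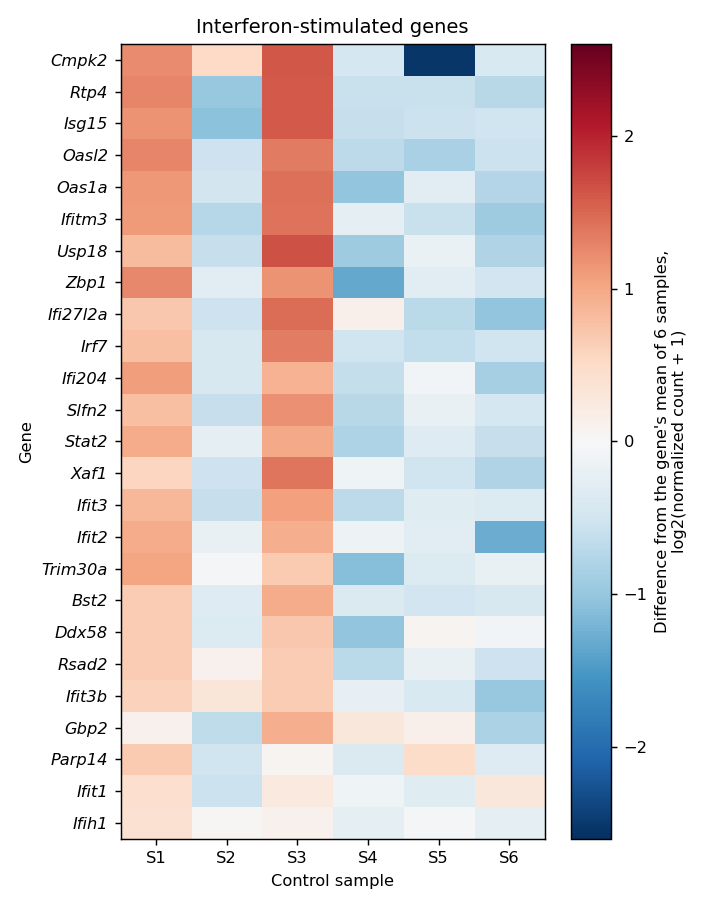
Difference of each control sample from the mean of the 6 samples on the log2(normalized count + 1) scale for 25 of the 26 interferon-stimulated genes with a mean of at least 100; red is above and blue below the mean. The columns of S1 and S3 are red for all 25 genes shown.

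Genes on and off the list were searched for the same order. Among the 3781 genes with a mean of at least 1000, S1 and S3 were the 2 highest samples in 289 (7.64%). In 46 genes the second highest sample was at least 1.5 times the third highest, and S1 and S3 were the 2 highest in 31 of these 46 (67.4%). The order was known from the list in these same data, so these counts are no test either. The minimum mean also includes S1 and S3, and several of the 31 genes passed only through them. These were *Ifi35* (800 to 955 in the others), *Epsti1* (750 to 945), *Dhx58* (452 to 1034) and *Pml* (543 to 1013). *Usp18* (699 to 1168), *Stat2* (751 to 1111), *Zc3hav1* (634 to 1164) and *Nampt* (739 to 1295) passed in the same way. The count of 31 and the 67.4% thus rest in part on genes let in by S1 and S3. Of the 31 genes, 13 were on the interferon-stimulated list. The other 18 included *Lgals3bp*, a secreted galectin ligand, with 27725 in S3, 24571 in S1 and 12158 to 14369.6 in the others. In the same order, the RNA editing gene *Adar* had 3333, 3174 and 762 to 1752, and the chemokine *Ccl12* 18921, 11214 and 3223 to 6056. *Sdc3* had 13411 in S3, 15286 in S1 and 5809 to 8192 in the others. *Fgl2*, *Nampt*, *Parp9*, *Parp12*, *Sp100*, *Pml*, *Ifi35*, *Ube2l6* and *Dhx58* were also among the 18. Among the MHC class I genes with a mean of at least 100, 8 of 15 (53.3%) had S1 and S3 on top, for example *H2-T23* with 12324 in S3, 10201 in S1 and 6265 to 8172 in the others. Of the homeostatic genes, 2 of 29 (6.90%) had this order.

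The promoter sequences of these genes are shown because interferon acts through a known element in them. The interferon-stimulated response element was searched as GAAA, any 2 bases and GAAA again, on either strand, in windows of 300 bases, from 250 bases before to 50 after the start of a gene, in RefSeq on GRCm38.p6. Of the 28 listed genes, 20 had a window, and 13 of them held a match, in 14 of 22 windows (63.6%) against 3.44% of all 32851 windows. Among the 31 genes above, 10 of 30 windows (33.3%) held one, but 13 of these genes are on the interferon-stimulated list. The matching windows of *Bst2*, *Ddx58*, *Ifit3*, *Ifitm3*, *Stat2* and *Trim30a* were thus counted in both sets. Of 19 windows of the 25 highest genes, 10.5% held one, and these were the windows of *Ctss* and *B2m*. Matches are in capitals, printed 5′ to 3′ on the strand of the gene, and in *Isg15* and *Bst2* several matches overlap. A match is a description of the letters and no sign of binding.
Isg15 (chr4:156200769-156201068, minus strand): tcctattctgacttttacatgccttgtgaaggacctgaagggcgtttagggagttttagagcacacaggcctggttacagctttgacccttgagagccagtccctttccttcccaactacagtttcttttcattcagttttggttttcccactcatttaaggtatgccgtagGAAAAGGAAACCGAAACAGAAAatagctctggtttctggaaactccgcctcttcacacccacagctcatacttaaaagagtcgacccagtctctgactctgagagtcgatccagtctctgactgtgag
Bst2 (chr8:71537423-71537722, minus strand): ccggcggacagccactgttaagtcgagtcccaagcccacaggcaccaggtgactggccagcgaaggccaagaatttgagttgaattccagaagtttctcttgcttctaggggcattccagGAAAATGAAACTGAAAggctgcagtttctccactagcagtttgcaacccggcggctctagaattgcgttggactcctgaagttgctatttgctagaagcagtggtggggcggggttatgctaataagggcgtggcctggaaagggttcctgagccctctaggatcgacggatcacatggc
Ifit3 (chr19:34583279-34583578, plus strand): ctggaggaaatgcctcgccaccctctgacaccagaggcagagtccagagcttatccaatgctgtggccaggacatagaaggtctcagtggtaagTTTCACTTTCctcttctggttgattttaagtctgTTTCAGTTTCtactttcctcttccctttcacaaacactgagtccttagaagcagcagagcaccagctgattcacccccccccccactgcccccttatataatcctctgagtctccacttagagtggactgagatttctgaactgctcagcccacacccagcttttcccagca
Ifitm3 (chr7:141010695-141010994, minus strand): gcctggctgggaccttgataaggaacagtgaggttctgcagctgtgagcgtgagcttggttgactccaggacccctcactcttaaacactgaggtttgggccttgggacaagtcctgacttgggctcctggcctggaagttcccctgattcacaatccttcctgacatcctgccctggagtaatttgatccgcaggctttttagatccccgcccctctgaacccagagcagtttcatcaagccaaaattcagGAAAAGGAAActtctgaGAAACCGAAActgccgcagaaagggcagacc
B2m (chr2:122147437-122147736, plus strand): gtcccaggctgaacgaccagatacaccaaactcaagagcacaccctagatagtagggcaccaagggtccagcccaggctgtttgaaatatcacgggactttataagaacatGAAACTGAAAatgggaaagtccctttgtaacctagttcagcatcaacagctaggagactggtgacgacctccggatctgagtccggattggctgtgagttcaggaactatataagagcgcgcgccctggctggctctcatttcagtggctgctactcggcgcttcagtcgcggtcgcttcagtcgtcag

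The promoter windows of the highest genes were searched for the element of PU.1, the factor encoded by *Spi1*, as GAGGAAGT or, on the other strand, ACTTCCTC. It was in 3.20% of all windows, in 8 of 99 windows (8.08%) of the 100 highest genes, in 2 of 27 (7.41%) of the homeostatic list, in 3 of 30 of the 31 genes with S1 and S3 on top, in 0 of 22 of the interferon-stimulated list and in 0 of 30 of the lineage factors. The homeostatic list held the interferon element in the same number of windows, 2 of 27, and the lineage factors held it in 0 of 30. Among the 25 highest genes, *Ctss* and *C1qc* held it. These 2 windows are shown with the PU.1 letters in capitals, and the window of *Ctss* also holds 1 interferon element, which lies just before the PU.1 letters.
Ctss (chr3:95526536-95526835, plus strand): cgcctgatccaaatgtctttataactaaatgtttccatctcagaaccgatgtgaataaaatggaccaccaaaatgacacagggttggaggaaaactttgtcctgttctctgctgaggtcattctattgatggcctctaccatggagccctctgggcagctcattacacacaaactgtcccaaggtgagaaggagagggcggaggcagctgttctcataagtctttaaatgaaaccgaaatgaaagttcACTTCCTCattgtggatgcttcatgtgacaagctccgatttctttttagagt
C1qc (chr4:136892865-136893164, minus strand): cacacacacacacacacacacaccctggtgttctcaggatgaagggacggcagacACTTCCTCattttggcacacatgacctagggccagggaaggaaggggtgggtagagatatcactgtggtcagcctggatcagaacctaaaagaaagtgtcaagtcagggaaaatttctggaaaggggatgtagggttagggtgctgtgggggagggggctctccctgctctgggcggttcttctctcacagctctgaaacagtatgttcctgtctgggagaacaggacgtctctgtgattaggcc

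S3 differed from the other samples by gene length as well. The 3781 genes with a mean of at least 1000 were split into 5 classes of equal size by exon length. In S3 the median difference from the mean of a gene was 0.13 on the log2 scale for the shortest genes (415 to 2894 bases) and -0.13 for the longest (8430 to 41324 bases), with 0.05, -0.04 and -0.09 between them. S2 had the opposite order, from -0.11 to 0.10. In the other 4 samples the classes lay between -0.03 and 0.08. Spearman's rank correlation between length and the difference, across genes, was -0.304 in S3, 0.316 in S2 and 0.012 to 0.074 in the others. Short genes such as those of ribosomal proteins, *Tmsb4x* (225732 in S3 against 156650.5 to 196321) and *B2m* (124332 against 83438 to 104253) were highest in S3, and long genes such as *Akap11* were lowest there. The part of length in the values of S3, in its 74 genes at 0 and in its interferon-stimulated genes was not tested, and S1, the other sample with high interferon-stimulated genes, had classes between -0.03 and 0.00.

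**Figure D5:**
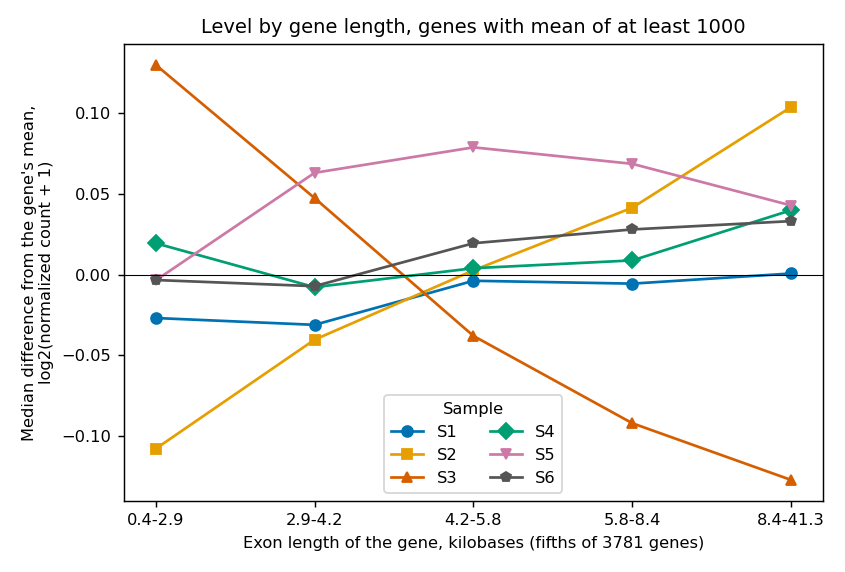
Median difference of a sample from the mean of 6 samples on the log2(normalized count + 1) scale, for 5 equal classes of 3781 protein-coding genes by exon length (kilobases). The line of S3 falls from 0.13 to -0.13 and that of S2 rises from -0.11 to 0.10, while the other 4 stay between -0.03 and 0.08.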

How the data were processed

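RNA-seq libraries were made from sorted retinal microglia with a low-input template-switching kit and transposase fragmentation, and sequenced as single reads. Per the study's methods and the submitters' processing notes, the authors checked reads with FastQC 0.72, aligned them with STAR 2.7.2b to the mouse genome of Gencode M25, merged the 2 parts of each sample, assigned reads to genes with featureCounts 1.6.4 and computed the deposited signal with DESeq2 1.22.2 as counts divided by size factors. With default settings, reads with several places in the genome and reads that overlap several genes are not counted and strand is not used, so a gene and its antisense partner cannot be told apart.

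Here, the 6 control columns were used and the 6 columns of laser-treated samples were not. Reads were recovered by dividing each column by the value of 1 read. Detection, depth, chi-square values, Wilson intervals, the other scalings and the dispersion alternative use them. Spread is the SD of log2(normalized count + 1), called variable at 1 or more among genes with a mean of at least 100. Exon lengths and coordinates came from Gencode M21 on GRCm38, which held 16060 of the 16070 protein-coding genes, and promoters from RefSeq. Scripts for spread were run on simulated data in which genes shared 1 basic dispersion, unlike in these samples. That run checks the code and not the genes called variable here. Python 3.11.15, R 4.3.3, edgeR 4.0.16 and DESeq2 1.42.0 were used.

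Genes were named by rule: the 4 markers, the 25 highest by mean and 15 per kilobase, the 20 with the largest and 15 with the smallest spread (the former also above a mean of 1000, added after the values were seen), the 15 highest at 0 in some sample, and within fixed lists the highest, lowest or most variable members. The highest genes of the minor classes and the genes with S1 and S3 on top were chosen after their values were seen. The members and lists were chosen with earlier results of these data known. With a single group no test between groups was run. Chi-square values compared pairs of samples with counting noise, and Dixon's critical value was used to find samples that stood apart. SD values measure the spread between samples, which may be partly technical. Some members of the 25 highest genes and of the lists are not reported here, while sums and counts of lists include them.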

Additional observations from a re-analysis of the deposited data

Results flagged for a closer look

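In 121 named genes, list sums and depths, the highest or lowest of the 6 samples was checked for a gap to its nearest neighbour above Dixon's critical share of the whole range for 6 values, and 17 had such a gap. Chance flags about 1 in 20 groups, but the genes checked include those chosen for the largest spread, the smallest spread or a 0 in some sample, so the 17 are not read against that rate. In 10 of the 17 the sample that stood apart was S3, and the cause was not tested. These 10 overlap, as *C1qb* and *C1qc* are also part of the sum of complement genes.

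S3 was the high sample for *C1qb* (230399 normalized counts, others 173948 to 191609), *C1qc* (205969.8, others 161238 to 173665), the lysosomal membrane gene *Laptm5* (163081, others 137278 to 143176) and *Rrm2* (510.1, others 0 to 152). It was also high for the sums of complement genes (684827, others 560856 to 601129), chemokine genes (53240.5, others 26067 to 35591), disease-associated genes (422336, others 351305 to 371387), ribosomal protein genes (172327, others 111455 to 132633) and rod genes (13415, others 4171 to 7092). S3 was the low sample for *Nktr*, a cyclophilin-related gene, with 271 against 1035 to 1365. The interferon-stimulated list had no such gap, because S1 stood beside S3.

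In the other 7 the samples varied. S5 was high for the lysosomal protease gene *Lgmn* (136899.5, others 113538 to 120803). S4 was low for *Fzd4* (281, others 1319 to 1850.0) and had 0 for *Plekha8*, against 293 to 454. S6 was high for *Acap3* (579.9, others 0 to 206) and had 10963178 reads on genes, against 19633144 to 22335233. S1 was high for *Gpnmb* (647, others 0 to 159), and S2 for *Pdia4*, a disulfide isomerase of the endoplasmic reticulum (10343, others 9556 to 9804).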

How the results depend on the processing

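The protein-coding share of reads was 98.8% without rRNA and mitochondrially encoded genes (98.6% with them), and 98.5% to 98.6% over the 6 sets that lack 1 sample. The 100 highest genes held 35.3% to 35.7% with a sample left out, and 9806 to 9975 genes had reads in all remaining samples. The 785 variable genes depended on the minimum mean, with 2567 at a minimum of 10 and 7 at 1000. They numbered 617 to 886 with a sample left out, 681 to 794 under other pseudocounts, 786 and 788 under DESeq2 and TMM factors, and 575 by edgeR dispersion. The 173 well-expressed genes at 0 became 448 at a minimum mean of 50, 147 at a minimum median of 100, and 89 (without S3) to 169 with a sample left out. For the 91 genes chosen by the naming rule, the mean under TMM factors stayed within 1 SD, while leaving out 1 of 6 samples cannot move a mean that far. The 23 interferon-stimulated genes with S1 and S3 on top were the same under both other scalings, an alternative chosen after seeing the data. No paired analysis was possible because only 1 group was described. Depth limits values under 3.01 to 5.96 normalized counts.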
